A study of Mus musculus with 6 samples.

Results

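Alpha and beta tubulins other than Tubb3 were followed in C17.2 cells, an established line of mouse neural stem cells, in RNA-seq of 3 culture conditions. The genes are all loci of the deposited table that hold a transcript whose gene name begins with Tuba or Tubb, Tubb3 left out. They come to 14 transcripts at 8 loci, of 15113 transcripts at 7171 loci in all. A locus here is a group of transcripts that StringTie, a transcript assembler, joined because they overlap on 1 strand, and some of its transcripts carry no gene name. The groups were heme-treated cells, cells in a neural induction medium with the neurotrophin BDNF at 10 ng/ml, and control cells in growth medium with 10% serum. The strain background given for the line is CD1 x C57BL/6. No source used here gives the dose, duration or medium of the heme treatment, or how long induction lasted. The design sets each treatment against control, and all 3 groups are cultures of 1 line.

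Values are FPKM, a fragment number divided by transcript length and by library size, so levels of different genes can be compared per length. The labels give 2 libraries a group, but the second heme column was a rescaled copy of the first. Over 13 tubulin transcripts it was 1.28 to 1.49 times the first, and the 14th was listed at 0 in both, so heme is 1 library without a replicate check of its own. Depth was even, with 4.14 to 4.56 gigabases mapped in each of the 5 distinct libraries. Of 12 neural progenitor markers 5 were listed (Nes, Sox2, Vim, Msi2 and Hes1), summed at 962 FPKM in the heme library, 954 and 953 FPKM after induction, and 978 and 836 FPKM in control. Of 6 mesenchymal markers 4 were listed, and these summed to 2365 FPKM in the heme library, 2228 and 2268 FPKM after induction, and 2331 and 1895 FPKM in control. Of 10 neuronal markers 2 were listed, Tubb3 and Map2, with a sum of 32.6 FPKM in the heme library, 23.2 and 29.0 FPKM after induction, and 23.3 and 21.8 FPKM in control. Oligodendrocyte markers were listed for 2 of 5 genes, at 105 to 121 FPKM. None of the astrocyte, microglial, endothelial or erythroid markers was listed. Control replicate 2 was the odd library for Mki67, a proliferation marker, at 15.7 FPKM against 28.2 to 33.8 FPKM elsewhere, and for Hmox1, which breaks down heme, at 222 FPKM against 43.7 to 79.4 FPKM. Where the sign of a tubulin locus or transcript difference from control turns without it, the value without it is given. In bulk RNA, fewer cells of a type and less RNA per cell cannot be told apart.

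Alpha-tubulin and beta-tubulin form the heterodimer from which microtubules are built. Mammals carry several genes of each kind, which encode very similar proteins that differ mostly in their acidic C-terminal tails. Tuba1a is the alpha-tubulin known for its high level in developing neurons, Tuba1b and Tuba1c are broadly expressed, and Tubb5 is the common beta-tubulin of dividing cells and of neural progenitors. Tubulin mRNA is also known to be autoregulated: when free dimer is in excess, the factor TTC5 recognises the first residues of the growing chain and the mRNA being translated is degraded. The first 12 coding bases, which encode that signal, are printed in lower case from GENCODE M21 (GRCm38) to show where they differ.
Tuba1b, Tuba1a and Tuba1c: atgcgtgagtgc
Tuba4a: atgcgcgagtgc
Tubb5: atgagggaaatc
Tubb4b: atgagggagatc
Tubb2a: atgcgcgagatc

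Tuba1b and Tuba1a encode nearly the same protein and lie side by side on chromosome 15. Their coding sequences were identical at 1330 of 1353 aligned bases (98.3%), and Tuba1b and Tuba1c at 1325 of 1353 (97.9%). Tuba1b and Tuba4a were less alike, at 85.1%. The likeness limits the assignment of reads to single genes. Of all windows of 50 bases in the annotated transcript, 83.1% in Tuba1b, 75.5% in Tuba1a and 61.0% in Tuba1c also occurred in a transcript of another gene. With windows of 100 bases the shares were 73.0%, 65.8% and 53.4%. Which of these reads the authors' counting kept for each gene is not given in the sources used here.

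The Tuba1b and Tuba1a transcripts formed 1 StringTie locus, which also holds an unnamed transcript that runs through both genes. The locus summed to 991 FPKM in the heme library, 925 and 859 FPKM after induction, and 950.3 and 931 FPKM in control. The heme library was the highest, and both induced libraries lay below both controls. Neither difference passed limma, with 0.075 ± 0.092 (SE) on the log2(FPKM + 1) scale for heme against control (95% interval -0.17 to 0.32, adjusted p = 0.998) and -0.078 ± 0.075 for induction against control (-0.28 to 0.12, adjusted p = 0.935). For heme against induction it was 0.15 ± 0.092 (-0.093 to 0.40, adjusted p = 1).

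Within this sum, the transcripts that carried the Tuba1b signal differed between the libraries. The annotated Tuba1b transcript, ENSMUST00000077577, has 4 exons and 1743 bases and spans chr15:98931425-98934565 on the minus strand (GRCm38), with the same ends as in GENCODE M21. It was at 30.4 FPKM in the heme library, 589.8 and 521 FPKM after induction, and 579 and 614 FPKM in control. Its mean coverage was 131 reads per base in the heme library, 2687 and 2160 after induction, and 2573 and 2674 in control. The heme library was far below the other 4, which lay close together. The transcript fell in the heme library, with a log2 difference of -4.25 ± 0.11 from control (limma adjusted p = 0.0121) and of -4.14 ± 0.11 from induction (adjusted p = 0.0096). Induction differed from control by -0.11 ± 0.092 (adjusted p = 0.938). Without control replicate 1, control replicate 2, induction replicate 1 or induction replicate 2 the heme difference from control stayed between -4.29 and -4.21. Those fits leave another group with a single library. The loss of the limma call in them therefore does not show whether it depends on a given library. With all 5 libraries but no intensity trend in eBayes, the call was also lost (adjusted p = 0.157 against control and 0.166 against induction). Against induction, leaving out each of those 4 libraries gave -4.23 to -4.05, with the call lost under the same limit.

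In the heme library an unnamed transcript led the Tuba1b span. MSTRG.7186.2, also with 4 exons, has 1572 bases and spans chr15:98931425-98934438 on the same strand. It was at 623 FPKM in the heme library, was listed at 0 in both induced libraries, and was at 33.6 FPKM in control replicate 1 and listed at 0 in control replicate 2. Only the heme library had it as a main transcript. It missed the threshold in limma, with an unadjusted p of 0.039 and an adjusted p of 0.950 against control, and an adjusted p of 0.661 against induction. The fitted log2 difference from control was 6.73 ± 2.24 and depends on the 1 FPKM added before the log. It was 4.17 without control replicate 2, and without control replicate 1 the transcript did not pass the filter and was not tested. No fold is given against induction, where it is listed at 0.

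Both transcripts have the same 3′ end. The unnamed one begins 127 bases further inside the gene and is 171 bases shorter, so 44 bases of the difference lie elsewhere in its exons, whose inner borders the table does not hold. The starts are shown because they are the known difference between the forms, 10 bases before each start in lower case and 20 bases from it in capitals, from RefSeq's GRCm38.p6 sequence on the minus strand. The annotated start lies in chr15:98934546-98934575, the unnamed one in chr15:98934419-98934448, and the RefSeq start of Tuba1b in chr15:98934371-98934400. The start shared by the listed Tuba1a transcript and the read-through lies in chr15:98953532-98953561. In GENCODE M21 that Tuba1a transcript starts upstream of it, at chr15:98953703.
Tuba1b ENSMUST00000077577: gctccgaggcGAGCCCGCCTCTGCGGCGGT
Unnamed MSTRG.7186.2: gggcgcctccGCCTCATTGCGTTACTTACC
Tuba1b in RefSeq: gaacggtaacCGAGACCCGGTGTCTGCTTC
Tuba1a and the read-through: cccaagtgccGCAGGTTCTCTTACATCGAC

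**Figure D1:**
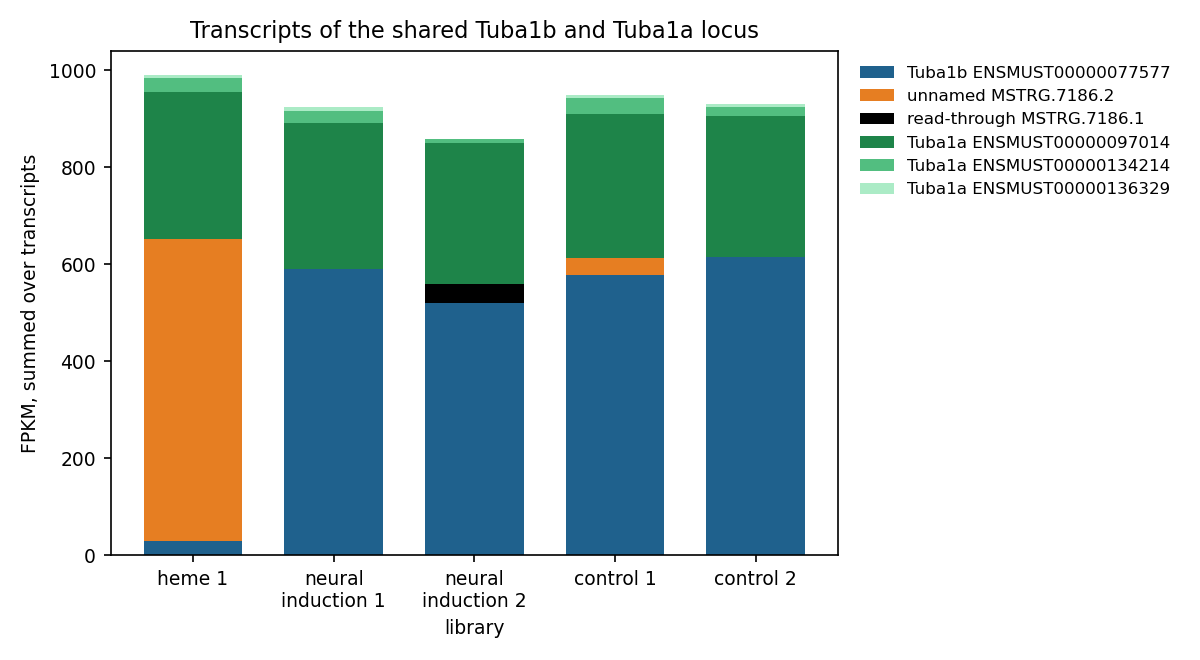
FPKM of the 6 listed transcripts of the shared Tuba1b and Tuba1a locus, stacked, in each of the 5 distinct libraries (bars; no error, each bar is 1 library). The total lies between 859 and 991 FPKM, and in the heme library the unnamed MSTRG.7186.2 at 623 FPKM stands where the other libraries have Tuba1b ENSMUST00000077577.

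As shares of the locus, the annotated Tuba1b transcript held 3.07% in the heme library, 63.8% and 60.7% after induction, and 60.9% and 66.0% in control. The unnamed transcript held 62.9% in the heme library, 0% in both induced libraries, and 3.53% and 0% in control. Shares of the summed coverage were the same, since coverage is FPKM times 1 constant per library. Added together by position, the transcripts of the Tuba1b span came to 653 FPKM in the heme library, 589.8 and 521 FPKM after induction, and 613 and 614 FPKM in control. The heme library was the highest and the induced libraries the lowest. None of these sums passed limma, with 0.091 ± 0.11 for heme against control (95% interval -0.19 to 0.37, adjusted p = 0.998), -0.15 ± 0.086 for induction against control (-0.38 to 0.084, adjusted p = 0.935) and 0.24 ± 0.11 for heme against induction (-0.045 to 0.52, adjusted p = 1). Summed by gene name instead, which leaves out the unnamed transcript, Tuba1b had -4.25 for heme against control and limma called it lower.

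A leading transcript that differs in 1 library alone is not rare in the table. Of 2600 loci with several transcripts and at least 10 FPKM in each library, 126 (4.85%) had another leading transcript only in the heme library. The same held for 96 loci in induction replicate 1, 130 in induction replicate 2, 123 in control replicate 1 and 112 in control replicate 2. At 1349 loci (51.9%) the leading transcript was the same in all 5 libraries.

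The read-through was seen in 1 library. MSTRG.7186.1 begins where the listed Tuba1a transcript begins and ends where Tuba1b ends, at chr15:98931425-98953551. It spans 22127 bases, across the 15275 bases between the genes, with 5 exons and 1610 bases of RNA. It was at 37.5 FPKM in induction replicate 2, 4.36% of the locus and 155 reads per base of coverage, and was listed at 0 in the heme library, in induction replicate 1 and in both controls. It did not reach the filter of 1 FPKM in at least 2 libraries, so it was not tested. In the same library the shorter Tuba1a transcripts ENSMUST00000136329 and ENSMUST00000134214 were at their lowest, 0.817 and 8.74 FPKM.

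Tuba1a differed little between the libraries. Its main transcript ENSMUST00000097014, at chr15:98949841-98953551 with 4 exons, was at 302 FPKM in the heme library, 302 and 291 FPKM after induction, and 298 and 291 FPKM in control. GENCODE M21 has other ends for it, chr15:98949837-98953703. The heme library was just above both controls, and the induced pair overlapped them. The difference was 0.035 ± 0.078 for heme and 0.0083 ± 0.064 for induction against control in limma (adjusted p = 0.982 and 1.000). Without control replicate 2 the induction difference was -0.0078. ENSMUST00000134214 was at 30.0 FPKM in the heme library, 25.1 and 8.74 FPKM after induction, and 32.7 and 19.1 FPKM in control, and ENSMUST00000136329 was between 0.817 and 8.10 FPKM. Neither of these short transcripts was found in GENCODE M21. For ENSMUST00000134214 the difference from control was 0.25 ± 0.71 for heme, -0.12 without control replicate 2, and -0.71 ± 0.58 for induction. For ENSMUST00000136329 it was -0.18 ± 1.11 for heme and -0.93 ± 0.90 for induction, and limma called none of these. All Tuba1a transcripts together came to 338 FPKM in the heme library, 335 and 300.4 FPKM after induction, and 338 and 317 FPKM in control. The read-through, at 37.5 FPKM in induction replicate 2, is in neither the Tuba1a nor the Tuba1b sum. Neither group differed from control beyond its error in limma, with 0.046 ± 0.10 for heme and -0.044 ± 0.085 for induction.

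**Figure D2:**
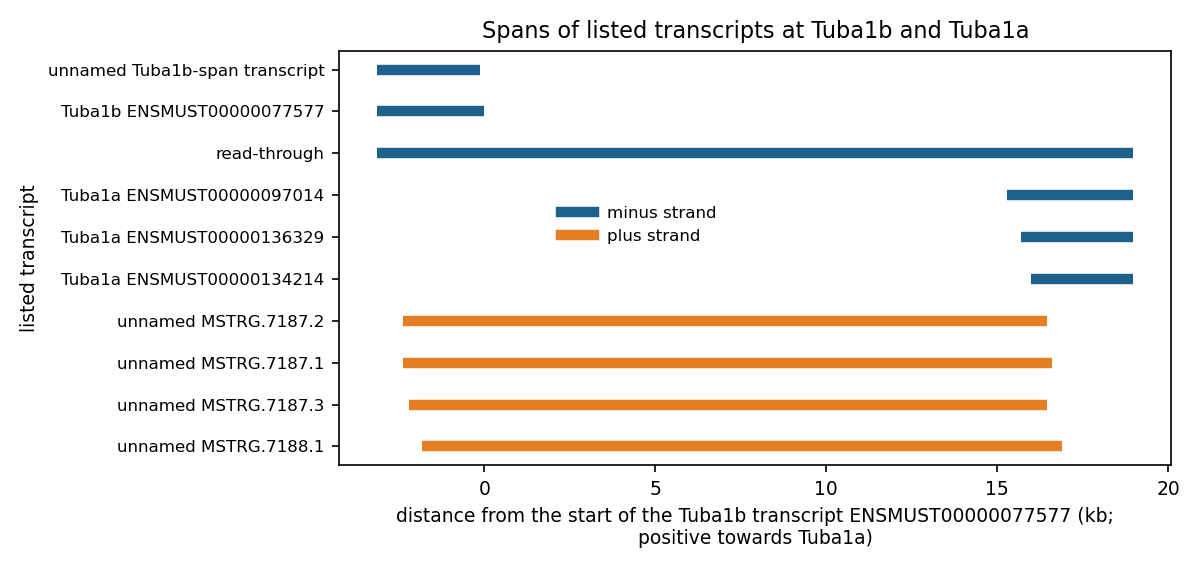
Spans of the transcripts listed at Tuba1b and Tuba1a, by distance from the start of ENSMUST00000077577 in kb, with minus-strand transcripts in blue and plus-strand ones in orange (inner exon borders are not in the table and are not drawn). The unnamed Tuba1b-span transcript starts 127 bases inside the gene, and the read-through runs from the listed start of Tuba1a at 18.986 kb to the end of Tuba1b.

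On the opposite strand, 4 unnamed transcripts at 2 loci ran from inside Tuba1b to inside Tuba1a. They are short, 208 to 475 bases of RNA, and each ends 1 to 12 bases from an exon edge of Tuba1a. Together they came to 267 FPKM in the heme library, 263 and 227 FPKM after induction, and 427 and 260.0 FPKM in control. The sum was highest in control replicate 1, but the 4 transcripts did not move together. There MSTRG.7187.2 and MSTRG.7187.3 were at their highest, 126 and 245 FPKM, while MSTRG.7187.1 and MSTRG.7188.1 were at their lowest, 37.2 and 18.6 FPKM. Neither locus passed limma in any comparison (adjusted p from 0.935 to 1). Whether the libraries keep the strand is not given in the sources used here, so reads of these transcripts and of the alpha-tubulin genes cannot be told apart.

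Tuba1c, the third near-copy, is read in the other direction at chr15:99029891-99038105, 76339 bases from Tuba1a. Its only listed transcript, ENSMUST00000058914, was at 320.5 FPKM in the heme library, 314 and 294 FPKM after induction, and 326 and 321 FPKM in control. The heme library was just below both controls, and the induced libraries were lower still. The differences from control were -0.012 ± 0.083 for heme and -0.088 ± 0.068 for induction in limma (adjusted p = 0.998 and 0.935).

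Tuba4a, an alpha-tubulin of more restricted expression, was the lowest tubulin and the one that varied most, by a factor of 1.92 between the highest and the lowest library. Its locus, chr1:75214228-75219294 on the minus strand, summed to 10.1 FPKM in the heme library, 10.6 and 12.7 FPKM after induction, and 9.43 and 18.1 FPKM in control. Control replicate 2 was the highest and control replicate 1 the lowest, so the groups overlap. The heme difference from control was -0.35 ± 0.40 (95% interval -1.42 to 0.72) and turned to 0.084 without control replicate 2. The induction difference was -0.17 ± 0.33 (-1.04 to 0.71) and turned to 0.27 without it. Neither passed limma (adjusted p = 0.998 and 0.957).

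Its expression was split over 2 annotated transcripts. The longer, ENSMUST00000186213, with 4 exons and 2840 bases, held 44.4% of the locus in the heme library, 100% and 49.1% after induction, and 42.9% and 51.3% in control. The shorter, ENSMUST00000188593, was at 5.59 FPKM in the heme library, listed at 0 in induction replicate 1 and at 6.45 FPKM in induction replicate 2, and at 5.38 and 8.83 FPKM in control. The heme differences from control were -0.40 ± 0.65 for the longer and -0.27 ± 1.38 for the shorter, and 0.12 and 0.045 without control replicate 2. The longer one overlaps 1379 bases of the span of Stk16, a kinase gene on the opposite strand, and 47.7% of the 50-base windows of the Tuba4a transcript also lie in Stk16 transcripts. Stk16 itself summed to 23.1 FPKM in the heme library, 22.6 and 22.6 FPKM after induction, and 20.6 and 10.2 FPKM in control. It was thus lowest where Tuba4a was highest. Its part in the Tuba4a values was not tested, and without strand the 2 genes cannot be told apart in the shared stretch.

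Tubb5 was the leading beta-tubulin. ENSMUST00000001566, at chr17:35833921-35838306 on the minus strand, was at 585 FPKM in the heme library, 602 and 579 FPKM after induction, and 587 and 621 FPKM in control. These 5 values span a factor of 1.07, the narrowest of the 8 loci. The heme library lay just below both controls and the induced pair overlapped them, with differences of -0.045 ± 0.087 and -0.032 ± 0.071 in limma (adjusted p = 0.998 and 0.964). Without control replicate 2 the induction difference was 0.0096. Only 0.115% of its 50-base windows occur in another gene.

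Tubb4b, a beta-tubulin that is widely expressed and is known in the axonemes of cilia, was at 196 FPKM in the heme library, 215 and 199.6 FPKM after induction, and 198 and 221 FPKM in control (chr2:25222160-25224702). Tubb6, a beta-tubulin mainly of non-neural cells, was at 165 FPKM in the heme library, 170.1 and 161 FPKM after induction, and 167 and 186 FPKM in control. For both the heme library lay below both controls by little, and control replicate 2 was the highest of the 5. The heme differences from control were -0.089 ± 0.11 for Tubb4b and -0.091 ± 0.10 for Tubb6, and those of induction were -0.014 ± 0.087 and -0.090 ± 0.084, in limma (adjusted p from 0.935 to 0.998). Without control replicate 2 the induction difference of Tubb4b was 0.064.

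Tubb2a, a beta-tubulin of neurons, was at 71.6 FPKM in the heme library, 73.5 and 75.7 FPKM after induction, and 73.3 and 68.9 FPKM in control (chr13:34074301-34078008). The induced libraries lay just above both controls. The induction difference was 0.069 ± 0.075 (95% interval -0.13 to 0.27, limma adjusted p = 0.935), and the heme difference 0.010 ± 0.092, which was -0.034 without control replicate 2. Of the 50-base windows of Tubb2a, 45.6% occur in its close relative Tubb2b, which has no transcript listed under its name. Tubb4b-ps1, a processed pseudogene of Tubb4b on chromosome 5 that is 98.3% identical to it, was at 19.7 FPKM in the heme library, 22.1 and 21.3 FPKM after induction, and 19.6 and 22.7 FPKM in control. Its heme difference from control was -0.093 ± 0.15 and 0.0098 without control replicate 2, and its induction difference was 0.038 ± 0.12, and limma called neither. Both genes were highest in control replicate 2 and next in induction replicate 1. Of the pseudogene's 50-base windows 52.4% occur in Tubb4b, and reads of those stretches cannot be told apart.

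**Figure D3:**
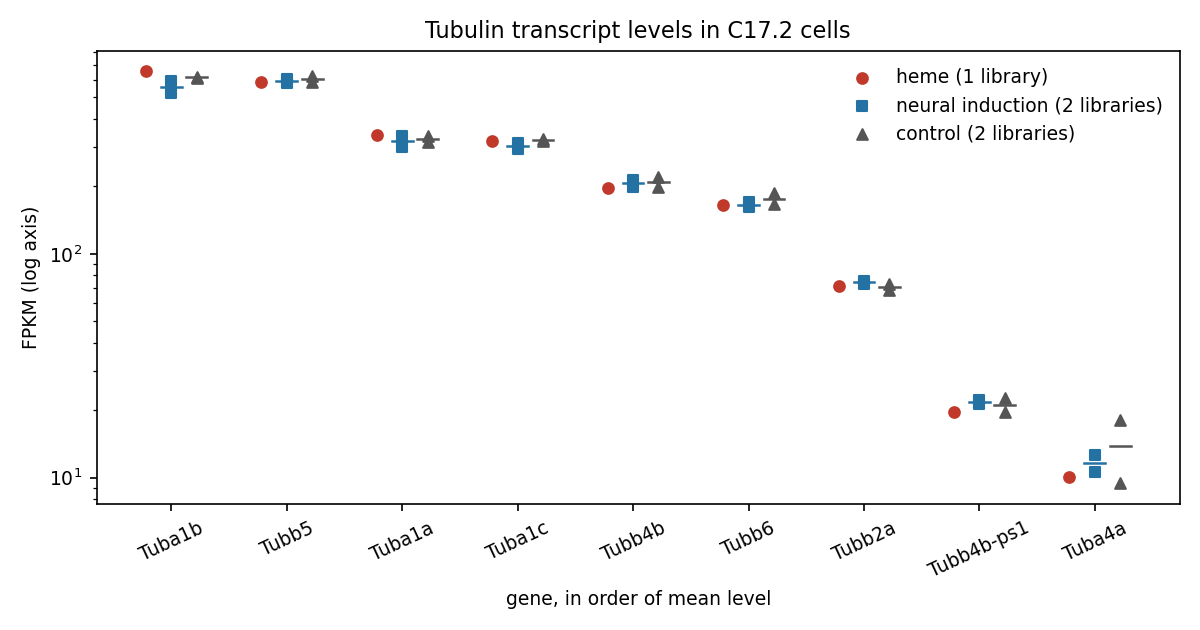
FPKM on a log axis of each tubulin gene in heme (red circle, 1 library), neural induction (blue squares, 2 libraries) and control (grey triangles, 2 libraries), with a line at the mean of each pair; Tuba1b and Tuba1a are summed by position. The 3 groups lie together for each gene, from Tuba1b at 521 to 653 FPKM down to Tuba4a at 9.43 to 18.1 FPKM.

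By mean level over the 5 libraries the order was Tuba1b (598 FPKM), Tubb5 (595), Tuba1a (325), Tuba1c (315), Tubb4b (206), Tubb6 (170.0), Tubb2a (72.6), Tubb4b-ps1 (21.1) and Tuba4a (12.2). Tuba1b and Tubb5 overlapped, and Tuba1b was the higher in 2 of 5 libraries. Tuba1a and Tuba1c also overlapped, with Tuba1a higher in 4 of 5. All other neighbours in the order kept apart in every library. Tubb3, the neuronal beta-tubulin that is not counted here, had 14.0 FPKM in the heme library, 11.5 and 13.6 FPKM after induction, and 12.9 and 11.3 FPKM in control.

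The total of the tubulin pool was steady. Alpha- and beta-tubulins summed to 2360 FPKM in the heme library, 2332 and 2203 FPKM after induction, and 2330.0 and 2389 FPKM in control. These sums were 0.552% to 0.585% of all listed FPKM. The beta part counts the pseudogene Tubb4b-ps1 and leaves out Tubb3. The alpha to beta ratio was 1.27 in the heme library, 1.15 and 1.12 after induction, and 1.23 and 1.13 in control. The ratio was highest in the heme library, with control replicate 1 next to it. The highest library stood a median of 1.14 times above the lowest over the 8 loci, against 1.33 over the 7039 loci tested and 1.15 over the 655 of those with a mean of at least 100 FPKM. Of the 8 tubulin loci, 5 also have a mean of at least 100 FPKM.

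Tested as locus sums over all 7039 loci, 0 of 8 tubulin loci passed an adjusted p of 0.05 in limma for heme against control (0.0426% of all loci passed), for induction against control (0.0142%) or for heme against induction (0.0568%). At an unadjusted p below 0.05 the count was 0 of 8 in each, against 3.59%, 3.05% and 3.38% of all loci. The heme library lay outside both controls at 5 of 8 loci, against 56.6% of all loci. It was below them for Tuba1c, Tubb4b, Tubb5 and Tubb6 (31.1% of all loci) and above for Tuba1a/Tuba1b (25.5%). The induced libraries did not overlap the controls at 3 of 8 loci, against 31.2% of all loci. They were lower at Tuba1a/Tuba1b and Tuba1c (13% of all loci) and higher at Tubb2a (18.2%). The median log2 difference over the tubulin loci was -0.067 for heme and -0.055 for induction against control, beside -0.0035 and 0.019 over all loci. As transcripts, 1 of 13 tested passed for heme against control (0.0728% of all 13737 did), 0 for induction against control (0.00728%) and 1 for heme against induction (0.0801%). In both cases it was Tuba1b ENSMUST00000077577. At an unadjusted p below 0.05 the counts were 2 of 13 (4.95% of all transcripts), 0 of 13 (4.98%) and 2 of 13 (4.96%), with MSTRG.7186.2 the other one. The comparisons against control share the control libraries, and both calls rest on the same heme library.

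**Figure D4:**
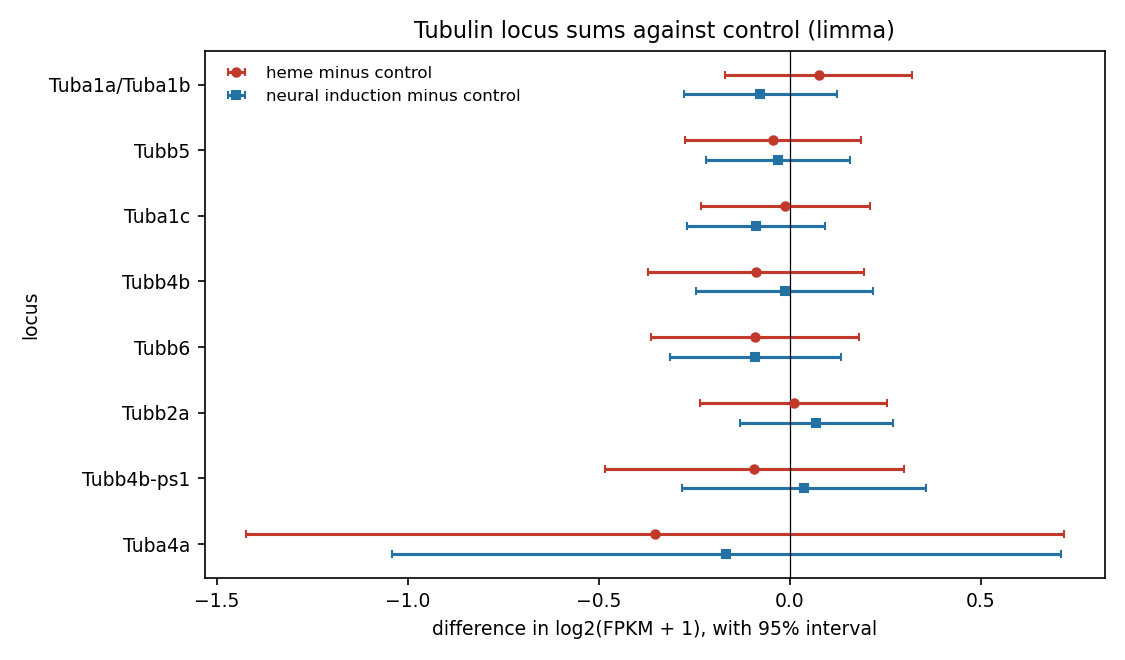
Differences of the 8 locus sums from control in log2(FPKM + 1), heme (red circles) and neural induction (blue squares) minus control, with 95% intervals from limma. Every interval crosses 0, and Tuba4a has the widest, from -1.42 to 0.72 for heme.

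The authors' deposited table gives a log2 fold change for each transcript in both comparisons with control. In the authors' deposited table for heme, Tuba1b ENSMUST00000077577 had -4.27 and MSTRG.7186.2 had 4.19, with p-values of 1.5e-117 and 5.56e-121. The deposited FPKM hold 1 distinct heme library, so these p-values cannot be set here against a second heme culture. When the p-values of the authors' deposited table were adjusted here by the Benjamini-Hochberg method, 1094 of all 15113 transcripts fell below 0.05. Tuba1b ENSMUST00000077577 and MSTRG.7186.2 were the only 2 of the 14 tubulin transcripts among them. In the authors' deposited table for induction, MSTRG.7186.2 had -8.08. It alone of the 14 tubulin transcripts was among the 1088 of all 15113 transcripts below 0.05 after the same adjustment. It is listed at 0 in both induced libraries and in 1 of the controls. The next, in the authors' deposited table for induction, was Tuba4a ENSMUST00000188593 at -5.47, with a p-value of 0.00607 (0.0731 as adjusted here).

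Genes that make, fold and regulate tubulin were followed as 5 lists of 103 genes, of which 62 were listed, at 62 loci and 128 tested transcripts. None passed limma in any comparison as a locus sum or a transcript, beside 0.0426% of all loci and 0.0728% of all transcripts for heme against control, 0.0142% and 0.00728% for induction against control, and 0.0568% and 0.0801% for heme against induction. At an unadjusted p below 0.05 there were 3 of 62 loci for heme against control (3.59% of all loci), 2 for induction against control (3.05%) and 2 for heme against induction (3.38%). Of their 128 transcripts there were 6 (4.95% of all transcripts), 4 (4.98%) and 8 (4.96%). The members given are those with the smallest unadjusted p against control. Among 18 folding factors and chaperones, which bring tubulin chains to their native form, the locus median was -0.058 for heme and 0.037 for induction against control, beside -0.0035 and 0.019 over all loci. Pdcl3, a helper of the chaperonin CCT, had 32.2 FPKM in the heme library, 25.5 and 26.3 after induction, and 24.5 and 22.0 in control (0.45 ± 0.13 for heme, unadjusted p = 0.0186, limma adjusted p = 0.989). Cct8, a subunit of CCT, had 216 FPKM in the heme library, 263 and 257 after induction, and 239 and 264 in control (-0.21 ± 0.094 for heme). Tbce, a tubulin folding cofactor, was near 0 in the heme library, at 1.13 and 0.508 FPKM after induction, and at 3.01 and 0.977 FPKM in control (-1.49 ± 0.81 for heme). The Myg1/Pfdn5 locus, which holds a prefoldin subunit and a neighbour, had 66.0 and 73.3 FPKM after induction and 65.2 and 59.3 in control (0.16 ± 0.096).

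Among 15 gamma-tubulin and nucleation genes, the median was 0.058 for heme and -0.027 for induction. Tubgcp5, of the gamma-tubulin ring complex, was at 4.43 FPKM in the heme library, 2.12 and 4.78 after induction, and 2.14 and 1.34 in control (1.00 ± 0.55 for heme). Haus1, of the augmin complex, was at 18.5 and 16.5 FPKM after induction and 14.9 and 14.7 in control (0.22 ± 0.12). Nedd1, which docks the ring complex, was at 18.3 FPKM in the heme library, 19.3 and 18.5 after induction, and 19.7 and 22.3 in control (-0.19 ± 0.14 for heme). The locus of Haus5, shared with neighbours, had 0.23 ± 0.17 for induction.

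Among 13 microtubule-associated and plus-end genes, the median was -0.0024 for heme and 0.025 for induction. Map2, a microtubule protein of dendrites, had 18.6 FPKM in the heme library, 11.7 and 15.4 after induction, and 10.4 and 10.4 in control (0.78 ± 0.21 for heme, unadjusted p = 0.0172, limma adjusted p = 0.989). Map6, a stabiliser of microtubules, was at 16.8 and 15.2 FPKM after induction and 12.3 and 9.53 in control (0.53 ± 0.17, unadjusted p = 0.0307, adjusted p = 0.935). Mapre2, a plus-end binder, had 1.00 ± 0.44 for heme and Camsap1, a minus-end binder, -0.30 ± 0.15 for induction.

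Among 7 destabilising and severing genes, the median was -0.0072 for heme and 0.059 for induction. Kif2a, a depolymerising kinesin, was at 34.1 and 31.0 FPKM after induction and 22.0 and 26.6 in control (0.41 ± 0.13, unadjusted p = 0.0301, limma adjusted p = 0.935). Fignl1, Kif2c and Katna1 differed by -0.55 ± 0.32, 0.40 ± 0.40 and 0.11 ± 0.12. Among 9 enzymes that modify tubulin, the median was -0.11 for heme and 0.16 for induction. Sirt2, a deacetylase of alpha-tubulin, was at 2.79 FPKM in the heme library, 7.51 and 4.85 after induction, and 11.2 and 7.29 in control (-1.41 ± 0.39 for heme, unadjusted p = 0.0183, limma adjusted p = 0.989). Lrrc49 (-0.66 ± 0.39 for heme) and Tpgs1 (0.20 ± 0.13 for induction), of the glutamylase complex, and Vash2, a detyrosinating enzyme (1.49 ± 1.12 for heme), did not pass either.

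The locus patterns closest to the summed tubulin FPKM over the 5 libraries, by Pearson correlation of log2(FPKM + 1) among 5567 loci, were Med7 (0.993), Nutf2 (0.992), Fam53c (0.991), Chtop (0.990) and Tm9sf4 (0.990). All 5 had their lowest value in induction replicate 2, as the tubulin sum did. With 5 points and many candidates, these values are a description.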

How the data were processed

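Total RNA of C17.2 cells was made into TruSeq libraries, per the labels' protocols. HISAT2, StringTie and edgeR were used on GRCm38 (mm10), per the submitters' processing notes, with no version given. The authors deposited FPKM and mean read coverage per base for each listed transcript of 6 columns, and, per comparison, p-values with log2 fold changes, log2 abundances and a likelihood ratio score. How the listed transcripts were chosen is not given in the sources used here, and transcripts that are not listed are in no sum.

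Members, lists and tests were chosen with earlier results of these data known. Heme replicate 2 was left out because it equals replicate 1 times 1.25 to 1.50 at all 13963 transcripts above 0. FPKM were summed per StringTie locus. limma 3.58.1 (R 4.3.3; Python 3.11.15 for the rest) was fitted to log2(FPKM + 1) in 1 model over 5 libraries, for features that reach 1 FPKM in 2 or more libraries (7039 loci, 13737 transcripts), with an intensity trend, two-sided, and Benjamini-Hochberg adjustment over all features at 0.05. The fit has 2 residual degrees of freedom and takes the lone heme library to vary like the others. The scale understates changes of low transcripts. The method was tested on simulated data. All tubulin loci are named, transcripts where they hold at least 10% of their locus or were called (the read-through, 2 short Tuba1a transcripts and 4 on the opposite strand are named beside this rule, after their values were seen), and up to 4 genes per list with the smallest unadjusted p against control. Sequences are from RefSeq (GRCm38.p6) for starts and GENCODE M21 for the first coding bases; 1 coding stretch is not reported here. FPKM give no counting interval.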

Additional observations from a re-analysis of the deposited data

How the results depend on the processing

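The alternatives gave 249 adjusted p-values in limma for locus sums, for the 8 loci against control and for Tuba1a/Tuba1b also between heme and induction. They lay between 0.105 and 1, with 0 below 0.05. Summed by gene symbol, 1 of 10 tubulin features was called for heme against control and 1 for heme against induction, Tuba1b, at -4.25 and -4.14, because the unnamed transcript drops out of the sum. With Ensembl-named transcripts alone, the Tuba1a/Tuba1b sum turned to -1.33 and -1.24 for the same reason. At transcript level, 1 tubulin transcript was called for heme against control and 1 for heme against induction. These counts were 0 with eBayes without trend (Tuba1b adjusted p = 0.157 and 0.166) and 0 to 0 when each replicate was left out. Against induction the count was 2 with all 6 columns, MSTRG.7186.2 being the other (adjusted p = 0.0261). That fit counts the rescaled copy as a second heme library, so its p-values do not rest on independent heme replicates. It is also among the alternatives that call Tuba1b in the next sentence. Over 12 alternatives, Tuba1b ENSMUST00000077577 lay between -4.29 and -3.97 for heme against control, called in 6, and between -4.23 and -3.87 for heme against induction, called in 6. The replicate numbers did not pair the samples: the deviations of same-numbered libraries correlated at -0.051 over loci and -0.015 over transcripts. With a replicate block the number of tubulin transcripts called was 0 in both comparisons, with Tuba1b at -4.27 (adjusted p = 0.0599) and -4.17 (0.0613). For heme against control the block turned Tubb2a to -0.00082, ENSMUST00000188593 to 0.61 and ENSMUST00000134214 to -0.29.

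Differences that were not called changed sign. For heme against control, using all 6 columns or the mean of both heme columns gave 0.095 and 0.11 for Tubb4b, 0.13 and 0.15 for Tubb4b-ps1, 0.26 and 0.29 for Tuba1c, 0.13 and 0.14 for Tubb5, 0.15 and 0.17 for Tubb6, and 0.073 and 0.095 for ENSMUST00000136329, since the second column is larger by construction. With each replicate left out in turn, heme against control ranged from -0.20 to 0.0098 for Tubb4b-ps1, from -0.034 to 0.055 for Tubb2a, from -0.79 to 0.084 for Tuba4a, from -0.91 to 0.12 for its transcript ENSMUST00000186213, from -0.58 to 0.045 for ENSMUST00000188593 and from -0.12 to 0.63 for ENSMUST00000134214, with the sign turning without control replicate 2. Induction against control ranged from -0.091 to 0.064 for Tubb4b (positive without control replicate 2 or without induction replicate 2), from -0.065 to 0.14 for Tubb4b-ps1 (negative without control replicate 1), from -0.60 to 0.27 for Tuba4a and from -0.073 to 0.0096 for Tubb5 (both positive without control replicate 2), from -0.17 to 0.86 for ENSMUST00000186213 (negative without control replicate 1), from -0.018 to 0.035 for ENSMUST00000097014 (negative without control replicate 2 or induction replicate 1), and from -2.09 to 0.24 for ENSMUST00000136329 and from -1.42 to 0.0032 for ENSMUST00000134214 (both positive without induction replicate 2). Median-ratio scaling turned ENSMUST00000097014 to -0.0092. The cause was not tested. In the counts below, the fit with all 6 columns again takes the rescaled copy for a second heme library. Over all features, calls among loci were 3 for heme against control, 1 for induction against control and 4 for heme against induction. They were 207, 51 and 210 with all 6 columns, 11, 0 and 12 by gene symbol, and 0 with Ensembl-named transcripts alone or without each replicate. For induction they were 0 with either other pseudocount or no filter, 2 with the block and 27 without trend. Calls among transcripts were 10, 1 and 11, against 417, 86 and 432 with all 6 columns and 0 with the block, without trend or without each replicate. With no filter they were 6 for heme and 0 for induction against control. With the Tuba1b and Tuba1a spans apart, added after seeing the data, 0 tubulin features were called. The heme results rest on 1 library, and FPKM give no counts.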
